A study of Mus musculus with 4 samples.

Results

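The 10 genes Ago1, Ago2, Ago3, Ago4, Drosha, Dgcr8, Dicer1, Tnrc6a, Tnrc6b and Tnrc6c encode the Argonaute proteins and the core enzymes and scaffolds of the microRNA pathway. They were taken by symbol from a table of 28193 genes, and all 10 had a row. The group was chosen by the measured difference of Ago3, which was higher after sleep deprivation in these same libraries, so their differences between groups, and the counts of how many passed each limit, are descriptions, and no p-value is given for any of them. The libraries came from fosTRAP-seq, in which RNA bound to the ribosomes of neurons tagged by c-Fos activity is pulled down and sequenced. The question was how ribosome-bound RNA in neurons active during an earlier sleep deprivation differs when the animals lose sleep again.

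The labels give male mice, dorsal hippocampus and the genotype cFos-Cre:Ribotag. The methods of the study give C57BL/6J males of 3 to 5 months whose CA1 was injected with 2 kinds of AAV. Cre under a c-Fos promoter, made to act with 4-OHT, then switched on HA-tagged Rpl22, a ribosomal protein through which the ribosomes can be pulled down. All mice of both groups, controls included, were sleep deprived for 5 h with 4-OHT on day 0. On day 7 the sleep deprived group (SD) was kept awake for 5 h again and the control group (NSD) was not, and tissue was taken at ZT 5, that is 5 h after lights on. Each library pooled the CA1 of 5 mice, with 2 libraries per group, 1 of each group in each of 2 batches named in the labels. The tag was switched on in neurons active in the first bout, whether or not the second activated them.

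In the microRNA pathway, a long primary transcript is cut in the nucleus by the Microprocessor, made of the RNase III enzyme Drosha and its RNA-binding partner Dgcr8. The released hairpin is exported and trimmed by Dicer1, and a strand of the product is loaded into an Argonaute, where bases 2 to 8, the seed, pair with target mRNAs. Argonautes bind the GW182 scaffolds, encoded by Tnrc6a, Tnrc6b and Tnrc6c, which recruit the deadenylases that shorten poly(A) tails and silence the target. In neurons this pathway is known for its control of local translation and synaptic plasticity.

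Ago3, Ago1 and Ago4 lie beside each other on the minus strand of chromosome 4 (GRCm39), Ago3 at chr4:126225497-126323349, Ago1 at chr4:126328805-126362376 and Ago4 at chr4:126383334-126427265. Ago2, the Argonaute best known for cutting its targets, lies apart at chr15:72967693-73056784, also on the minus strand. The promoters of Ago3 and Ago4, 300 bases around the start in RefSeq (GRCm38.p6, minus strand, chr4:126429493-126429792 and chr4:126533409-126533708), are shown because these genes, on either side of Ago1, hold the same number of GC boxes and are at different levels. Capitals mark each GGGCGG on either strand, with overlapping matches counted.
Ago3: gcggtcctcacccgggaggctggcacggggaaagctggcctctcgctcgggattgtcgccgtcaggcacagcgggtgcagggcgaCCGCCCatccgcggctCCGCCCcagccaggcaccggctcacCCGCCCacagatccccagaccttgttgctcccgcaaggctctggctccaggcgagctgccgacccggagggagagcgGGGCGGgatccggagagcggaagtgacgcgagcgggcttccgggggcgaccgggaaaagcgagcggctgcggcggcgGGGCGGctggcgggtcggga
Ago4: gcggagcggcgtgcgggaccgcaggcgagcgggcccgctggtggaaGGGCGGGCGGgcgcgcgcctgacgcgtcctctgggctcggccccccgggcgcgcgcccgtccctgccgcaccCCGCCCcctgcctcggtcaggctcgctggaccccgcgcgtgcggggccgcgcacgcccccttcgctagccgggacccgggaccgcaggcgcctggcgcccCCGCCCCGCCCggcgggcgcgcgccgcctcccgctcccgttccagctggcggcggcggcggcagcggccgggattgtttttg
Each held 5 GC boxes, against 2 in each sequence of Ago1, Dgcr8 and Dicer1, 1 and 0 in the 2 sequences of Tnrc6b, and 0 for Drosha, Tnrc6a and Tnrc6c. The table of promoters matched 9 of the 10 genes with 11 sequences, and Ago2 had none. A GC box stood in 35.7% of 32851 promoters of the same length. The letters TGACGTCA, the full cAMP response element, stood in 0 of the 11 sequences and in 1.79% of all promoters, and CACGTG, an E-box, stood in 1 of 2 for Tnrc6b and in 7.15% of all. Ago3 held 37 CpG and Ago4 held 54, against a median of 7 over all promoters. The sequences of Ago1, Dgcr8, Dicer1, Drosha and Tnrc6c were also rich in CpG, at 31 to 49. Those of Tnrc6a and Tnrc6b held fewer, at 11 for Tnrc6a and at 18 and 9 for Tnrc6b.

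Annotated microRNA hairpins overlapped exons of 3 members on the same strand, and their mature RNAs are shown because the pathway's own transcripts carry them. The hairpin of miR-1306 lies in an exon of Dgcr8 at chr16:18102103-18102181 (GRCm39), with Mir3618 beside it, and that of miR-5113 lies in an exon of Tnrc6b at chr15:80824240-80824321. Hairpins in the Dgcr8 mRNA are known to be cut by the Microprocessor itself. Gm54568 lies in Drosha. The seed is in capitals, and the sequences are from RefSeq (GRCm38.p6).
miR-1306-5p: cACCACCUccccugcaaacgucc
miR-1306-3p: aCGUUGGCucugguggugaug
miR-5113: aCAGAGGAggagagagauccugu
The count table had no row for any of these 4 hairpins, so reads from them fall under the member genes or are not counted.

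The libraries held 153511705 to 195910235 estimated counts, and all 10 members passed the filter of more than 5 counts in every library, along with 22338 genes in all. The lowest count of a member was 1894, for Ago4 in NSD library 2, so the precision was set by the 2 libraries per group and not by counting. Markers of the labelled region were present, with all 8 markers of CA1 pyramidal neurons at a summed 6154 to 6760 CPM, with Camk2a at 4090 to 4380 CPM. In 4 of these 8 both SD libraries lay under both NSD libraries and the median log2 difference of the list was -0.19, with Wfs1 at 390 and 441 CPM in NSD and at 279 and 355 CPM in SD (log2 difference -0.39, SE 0.123, adjusted p = 0.124 by edgeR and 0.00246 under the batch block, where it was called lower, and a difference of -0.22 without SD library 1 and -0.55, called, without SD library 2). Markers of other cells were present too, with Gad1 of interneurons at 311 to 332 CPM and Gfap of astrocytes at 152 to 187 CPM. Among glia, the 7 oligodendrocyte markers had the highest sum, at 1434 to 1725 CPM. The astrocyte list summed to 435 to 486 CPM and the microglia list to 55.3 to 72.8 CPM. The 9 endothelial markers summed to 49.1 and 68.8 CPM in NSD and to 40.1 and 26.0 CPM in SD, with Cldn5 at 3.51 to 7.32 CPM, 7 of 9 had every SD value under every NSD value, and Cldn5 had a log2 difference of -0.61 (SE 0.206, adjusted p = 0.146 by edgeR and 0.0366 under the batch block, where it was called lower, and a difference of -0.38 without NSD library 2 or SD library 2, -0.79 without NSD library 1 and -0.86, called, without SD library 1). Beside these CA1 and endothelial counts, every SD value was under every NSD value in 27.5% of all tested genes and 20% of protein-coding ones. In the opposite direction the 2 lists held 1 of 8 and 0 of 9, against 22.0% and 26.5%. Counts in rows annotated as TEC (unconfirmed transcripts) made up 0.273% and 0.210% of the NSD libraries and 0.157% and 0.118% of the SD libraries. The part of these shifts in the differences below was not tested. Among activity genes, Arc rose by 0.91 on the log2 scale (SE 0.101, edgeR adjusted p = 0.0328), while Fos was at 271 and 513 CPM in NSD and at 336 and 375 CPM in SD (log2 difference -0.14, SE 0.239, edgeR adjusted p = 0.827).

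To compare levels between genes, CPM values (counts per fixed library total, scaled with TMM factors) were divided by the length of all exons in kb. Ago2 at 30.9 ± 2.80 CPM per kb (SD over 4 libraries) and Tnrc6b at 30.2 ± 4.51 were at the top, and they did not differ beyond their spread, since Ago2 was the higher of the pair in 2 of 4 libraries. Ago1 followed at 20.4 ± 0.702. Below it came Tnrc6c at 14.2 ± 1.84, Drosha at 13.8 ± 0.836 and Tnrc6a at 12.2 ± 2.05, where Drosha overlapped both Tnrc6c and Tnrc6a, while Tnrc6c lay below Ago1 and Tnrc6a above Dicer1 without overlap. Dicer1 at 7.23 ± 0.640 and Ago3 at 5.97 ± 0.604 overlapped in range but stood in this order in 4 of 4 libraries, and Dgcr8 at 2.55 ± 0.133 and Ago4 at 1.75 ± 0.0944 were at the bottom without overlap. The median of the 10 was 13.0 CPM per kb. Divided by the length of the longest transcript instead, the median was 21.3 and Tnrc6b ranked 1, Ago2 ranked 2, Tnrc6c ranked 3 and Ago1 ranked 4, so the order near the top depends on the length used.

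**Figure D1:**
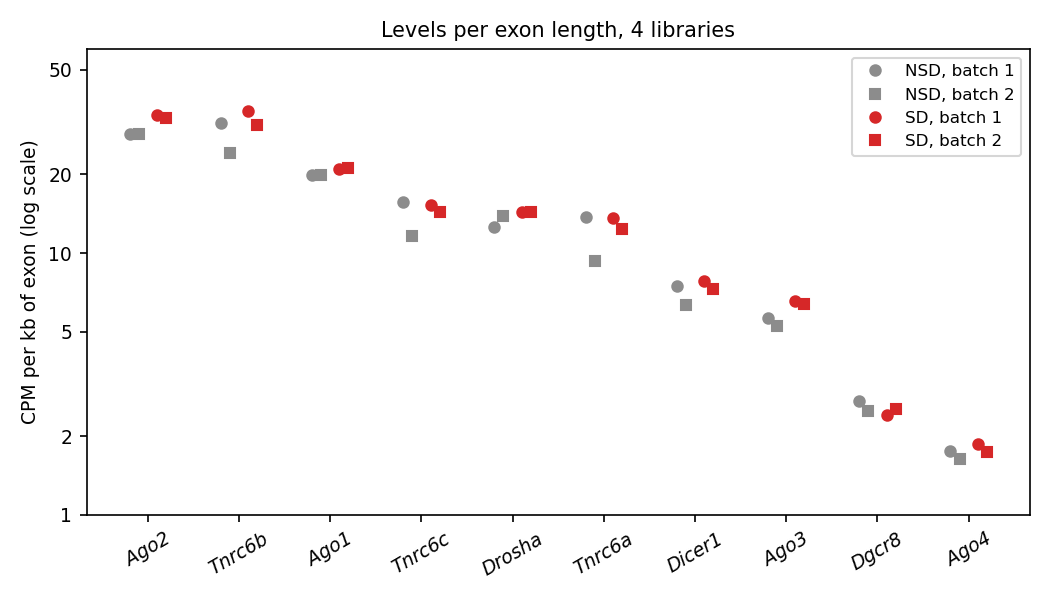
Levels of the 10 genes in CPM per kb of exon on a log axis, with 1 point per library, grey for NSD and red for SD, circles for batch 1 and squares for batch 2. Ago2 and Tnrc6b share the top near 30 CPM per kb and Ago4 is lowest at 1.75 CPM per kb.

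Within the Argonautes, the same scale gave Ago2 51.2% to 53.5% of the family's summed level per kb over the 4 libraries and Ago1 33.1% to 35.9%. Ago3 held 9.56% to 10.4% and Ago4 2.81% to 3.14%. Shares of a family sum to a fixed total, so a higher share of 1 gene lowers the others, and they are not compared between groups. Tnrc6b held 51.6% to 54.7% of the summed level per kb of the GW182 scaffolds, and Drosha held 55.3% to 61.1% of the summed level of Drosha, Dgcr8 and Dicer1, with Dgcr8 at 9.81% to 11.9%.

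Between groups, 0 of the 10 genes were called higher or lower in SD by edgeR's quasi-likelihood test over all genes. A gene was called if it passed both a limit of 0.05 on the adjusted p and a limit of 1.2 on the fold change. Over all tested genes, 0.770% were called higher and 2.33% lower. At an unadjusted p under 0.05, 2 of the 10 genes passed, Ago2 and Ago3, both higher, as were 6.86% of all tested genes, with 12.2% lower. That count was 3 with DESeq2, beside 1970 of 22338 genes, and 5 with the batch number as a block, beside 2364. DESeq2 called 1 of the 10, Ago3, higher, at a fold change of 1.2, against 3.0% of all genes. Ago2 and Ago3 both passed DESeq2's adjusted p alone in the higher direction, as did 891 of 22338 genes. Ago2 was not called there because its fold change was 1.19. With the batch number as a block, 3 of the 10 (Ago2, Ago3 and Tnrc6b) passed the adjusted p alone in the higher direction, against 4.95% of all genes, and 0 were called because their fold changes stayed under 1.2, against 2.99% of all genes. The fitted difference was above 0 in 9 of the genes and below 0 in Dgcr8, and the median log2 fold change of the 10 was 0.13, beside -0.02 over all tested genes, 0.02 over protein-coding genes and 0.05 over the 3938 protein-coding genes whose longest transcript is at least as long as that of the shortest member, 5893 bp. In 4 of the 10 genes, Ago1, Ago2, Ago3 and Drosha, both SD libraries were above both NSD libraries, as were 22.0% of all tested genes and 26.5% of protein-coding ones, and in 0 they were both below, as were 27.5% and 20%. The contrast was used to choose the genes, so nothing is read from these counts. In a pool of tissue, fewer tagged cells and less of an RNA per cell cannot be told apart.

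**Figure D2:**
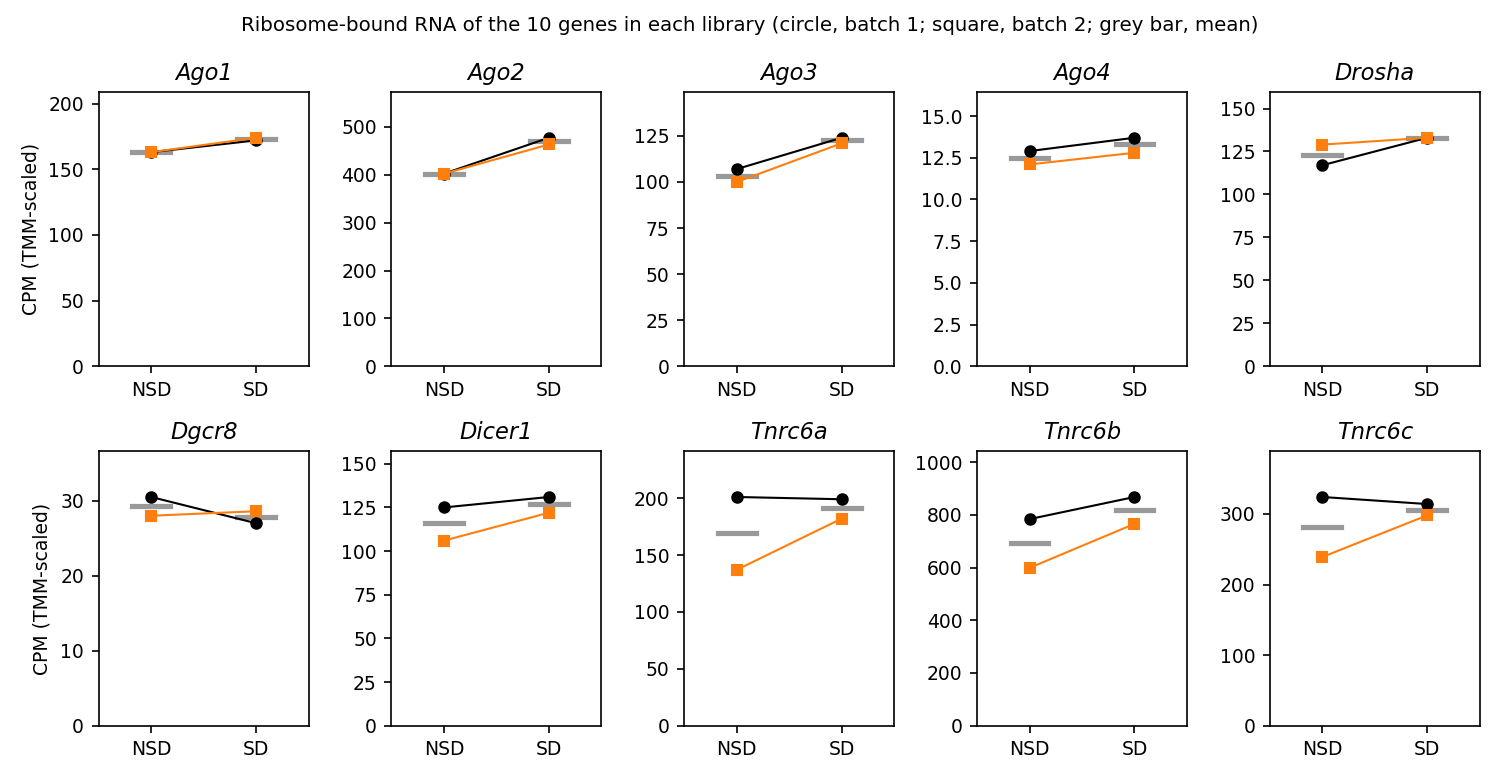
CPM of each gene in each library, with NSD on the left and SD on the right of each panel, a line joining the libraries of 1 batch (circles, batch 1, squares, batch 2) and a grey bar at the group mean. All genes but Dgcr8, Tnrc6a and Tnrc6c are higher in SD in both batches, and the GW182 genes Tnrc6a, Tnrc6b and Tnrc6c have NSD library 2 as their lowest.

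Ago3, the gene for which the group was chosen, was at 107 and 100 CPM in NSD libraries 1 and 2 and at 124 and 121 CPM in SD libraries 1 and 2. The groups did not overlap, and both SD libraries lay close together. The log2 fold change was 0.24 (SE 0.0691, fold 1.18), and within batches the difference was 0.22 in batch 1 and 0.27 in batch 2 on the log2 scale. With any 1 library left out it ran from 0.20, without NSD library 2, to 0.32, without NSD library 1.

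Ago2 was at 402 and 402 CPM in NSD and at 477 and 463 CPM in SD. The gap between groups was wider than the gap within either group, since the NSD libraries differed by 0.0002 and the SD libraries by 0.0446 on the log2 scale. The log2 fold change was 0.22 (SE 0.0805, fold 1.17), and it was 0.25 in batch 1 and 0.20 in batch 2. Its row shares 219 bp of exon with Chrac1, a gene on the opposite strand that encodes a subunit of a chromatin remodelling complex. Chrac1 was at 1.70 and 1.41 CPM in NSD and at 1.17 and 1.25 CPM in SD (log2 fold change -0.37, SE 0.258, edgeR adjusted p = 0.515), far below Ago2 in level.

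The other pair of Argonautes differed less. Ago1 was at 163 and 163 CPM in NSD and at 172 and 174 CPM in SD, without overlap, with a log2 fold change of 0.09 (SE 0.0685). Ago4 was at 12.9 and 12.1 CPM in NSD and at 13.7 and 12.8 CPM in SD, with a log2 fold change of 0.09 (SE 0.0972), and its groups overlapped. That value was 0.04 without SD library 1 or without NSD library 2, and 0.17 without NSD library 1. Ago4 was higher in SD within each batch, by 0.09 and 0.08 on the log2 scale, which was less than the difference of 0.10 between its own NSD libraries. Summed over the 4 Argonautes, NSD libraries held 685 and 677 CPM and SD libraries 787 and 770 CPM, a sum carried mostly by Ago2. The pseudogene Gm12934 inside Ago4 was at 0 to 0.0700 CPM and was not tested.

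Of the processing enzymes, Drosha was at 117 and 129 CPM in NSD and at 133 and 133 CPM in SD, so the SD libraries were level with each other. The groups did not overlap, but NSD library 2 lay close to SD, and the log2 difference was 0.19 in batch 1 and 0.05 in batch 2. Its log2 fold change was 0.12 (SE 0.0740), 0.08 without NSD library 1 and 0.19 without NSD library 2.

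Dgcr8 was at 30.5 and 28.0 CPM in NSD and at 27.0 and 28.6 CPM in SD, with overlapping groups and opposite signs in the batches, -0.18 and 0.03. Its log2 fold change was -0.08 (SE 0.0798) and turned to 0.02 without NSD library 1. Dgcr8 shares 3062 bp of exon with Trmt2a, a tRNA methyltransferase gene on the opposite strand, at 19.4 and 17.4 CPM in NSD and at 15.9 and 15.1 CPM in SD (log2 fold change -0.25, SE 0.0929, edgeR adjusted p = 0.192). The kit marks strand, but whether the counting used it is not given in the sources used here, so reads of Dgcr8 and Trmt2a over the shared exon may not have been told apart.

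Dicer1 was at 125 and 106 CPM in NSD and at 131 and 122 CPM in SD, and NSD library 1 lay above SD library 2. The log2 fold change was 0.13 (SE 0.0906), and it ran from 0.02 without NSD library 2 to 0.28 without NSD library 1. The table lists Dicer1 under the biotype polymorphic_pseudogene, although it is the gene of the working Dicer enzyme, so it drops out when only protein-coding rows are kept.

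The GW182 genes shared a low NSD library 2. Tnrc6a was at 201 and 137 CPM in NSD and at 199 and 182 CPM in SD, so batch 1 showed a log2 difference of -0.01 and batch 2 of 0.42. Tnrc6b was at 784 and 599 CPM in NSD and at 868 and 766 CPM in SD, higher in SD by 0.15 in batch 1 and 0.35 in batch 2. Tnrc6c was at 324 and 239 CPM in NSD and at 314 and 298 CPM in SD, with -0.04 in batch 1 and 0.32 in batch 2. All 3 genes therefore overlapped between groups, with the highest NSD value above the lowest SD value.

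The 2 NSD libraries differed by 0.56 for Tnrc6a, 0.39 for Tnrc6b and 0.44 for Tnrc6c on the log2 scale, while the median absolute difference between them was 0.103 over 8636 protein-coding genes above 10 CPM. A larger absolute difference was seen in 0.637%, 2.11% and 1.42% of those genes. The SD libraries differed by 0.13, 0.18 and 0.08 for the same 3 genes, against a median of 0.0717. The fold changes accordingly turned on which NSD library was kept. With all 4 libraries they were 0.18 (SE 0.156) for Tnrc6a, 0.24 (SE 0.136) for Tnrc6b and 0.12 (SE 0.132) for Tnrc6c on the log2 scale. Without NSD library 2 they were -0.08, 0.06 and -0.08, and without NSD library 1 they were 0.51, 0.48 and 0.39, and Tnrc6a was then called higher. The lncRNA row Gm45846, which shares 143 bp of exon with Tnrc6a on the same strand, was at 0.0510 to 0.143 CPM (log2 fold change 0.86, SE 0.637, edgeR adjusted p = 0.543).

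**Figure D3:**
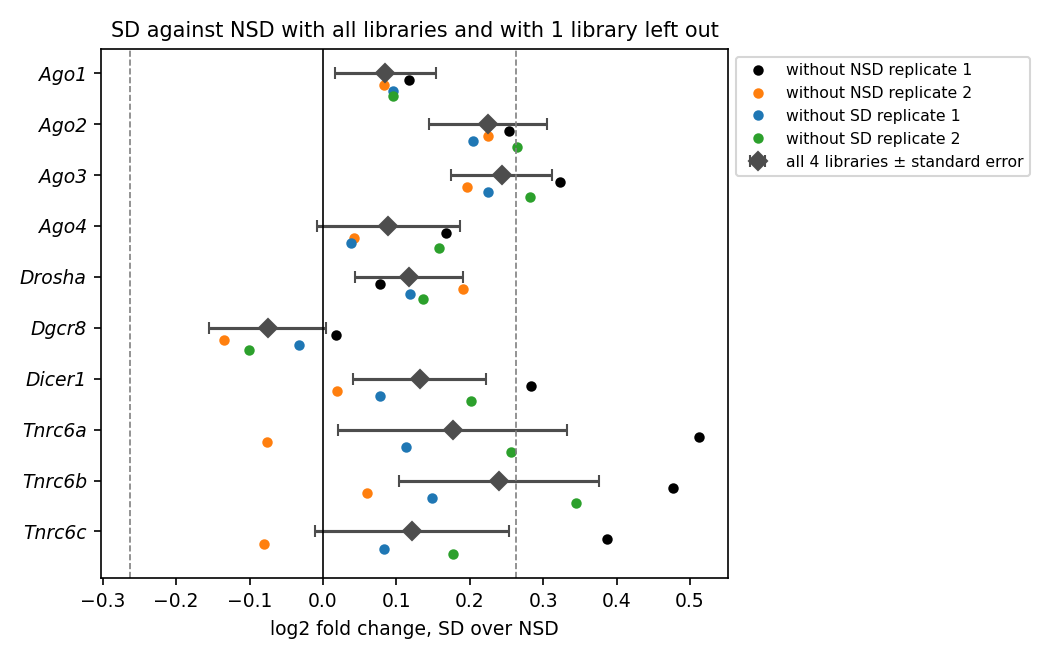
Log2 fold change of SD over NSD for each gene, with diamonds and bars for all 4 libraries ± standard error, coloured points for fits without 1 library, and dashed lines at a fold change of 1.2 in either direction. The points of all genes but Dgcr8, Tnrc6a and Tnrc6c stay to the right of 0, while those of Tnrc6a run from -0.08 to 0.51.

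Beyond the 10 genes, 75 others of the microRNA pathway were listed by role, and 74 had a row and were tested (Lin28a had none). All 74 are protein-coding, so shares over the 15551 protein-coding genes tested are given beside their counts. edgeR called 2 of 74 higher in SD and 0 of 74 lower, against 0.952% and 0.540%, and the median log2 fold change was 0.05, beside 0.02. At an unadjusted p under 0.05, 9 were higher and 7 lower, against 8.86% and 5.76%. With the batch block these were 15 and 9, beside 2364 and 3557 of all 22338 genes tested. With DESeq2 they were 12 and 6, beside 1970 and 2376. In 27 genes both SD libraries were above both NSD libraries and in 15 both were below, against 26.5% and 20%. With the batch block, 5 of 74 were called higher and 3 lower, against 3.77% and 3.29%, and DESeq2 called 6 higher and 1 lower, against 3.92% and 1.79%.

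Dcp2, the enzyme that removes the mRNA cap, rose from 129 and 128 CPM in NSD to 188 and 163 CPM in SD (log2 fold change 0.45, SE 0.0845, edgeR adjusted p = 0.0397). Cnot6, a catalytic deadenylase of the CCR4-NOT complex that GW182 proteins recruit, rose from 47.2 and 43.4 CPM to 57.7 and 56.4 CPM (log2 fold change 0.33, SE 0.0708, edgeR adjusted p = 0.0480). Neither gene's groups overlapped. Both calls were lost without NSD library 2 or without SD library 1, where 0 of 74 were called higher and the log2 fold changes were 0.45 and 0.35 for Dcp2 and 0.27 and 0.32 for Cnot6. The calls were lost also with no count filter, with filterByExpr and with only protein-coding genes in the fit.

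Among the partners of the Microprocessor, the cap-binding gene Ncbp3 was at 25.0 and 25.1 CPM in NSD and at 33.9 and 30.6 CPM in SD (log2 fold change 0.36, adjusted p = 0.0507 by edgeR and 0.00367 under the block). Adarb1, an editor of adenosine in double-stranded RNA, was at 243 and 230 CPM in NSD and at 291 and 285 CPM in SD (0.28, adjusted p = 0.0855 by edgeR and 0.0105 under the block). These 2 genes were called under the block and by DESeq2, and Ncbp3 was also called by edgeR with DESeq2's size factors (adjusted p = 0.0451) and without SD library 2 (adjusted p = 0.00971). P4ha1, a subunit of the prolyl hydroxylase that modifies collagen and Ago2, was at 28.3 and 27.4 CPM in NSD and 34.0 and 35.2 CPM in SD (0.31, adjusted p = 0.0569 by edgeR, 0.0495 with DESeq2's size factors, 0.00677 under the block and 0.0042 by DESeq2, with a call in the last 3).

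On the lower side, the helicase gene Mov10, an Argonaute partner, was at 6.91 and 5.2 CPM in NSD and at 5.48 and 3.65 CPM in SD, a log2 difference of -0.41 (adjusted p = 0.376 by edgeR and 0.0455 under the block). This difference ran from -0.13 without SD library 2, through -0.16 without NSD library 1, to -0.73 without SD library 1, where Mov10 was called lower. Pan2, a deadenylase, had a log2 difference of -0.32 (adjusted p = 0.122 by edgeR and 0.0361 under the block). Dcp1b, a cofactor of Dcp2, was at 8.93 and 8.64 CPM in NSD and at 6.73 and 6.49 CPM in SD, a difference of -0.41 (adjusted p = 0.0918 by edgeR, 0.0204 under the block and 0.0398 by DESeq2, with a call in the last 2). Dcp1b and Dcp2 thus had fitted differences of opposite sign. Dicer's partner Tarbp2 was at -0.36 (edgeR adjusted p = 0.363) and the Hsp90 cochaperone Fkbp4 at 0.21 (edgeR adjusted p = 0.206).

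Export and turnover genes gave no call under edgeR. The exporter Xpo5 was at 44.0 and 45.8 CPM in NSD and at 45.7 and 47.3 CPM in SD (log2 fold change 0.05, SE 0.0666), and its GTPase Ran was at 0.10 (SE 0.0860). The nuclease genes Eri1 and Xrn2 were at 0.27 (edgeR adjusted p = 0.223) and -0.25 (edgeR adjusted p = 0.120). By root mean square distance of mean-centred log2 CPM over the 4 libraries, the pathway genes most like Ago3 were Adarb1 at 0.0214, Ankrd52, a regulatory subunit of the phosphatase that acts on Argonautes, at 0.0314, and Cnot6 at 0.0460, beside 0.0357 for Ago2. Of 15550 other protein-coding genes, 0.277%, 0.804% and 2.48% lay as close to Ago3 as these 3. The 4 values behind this distance include the difference between groups for which Ago3 was chosen, so it is a description. Ankrd52 had a log2 difference of 0.25 (adjusted p = 0.121 by edgeR), and DESeq2 called it higher (adjusted p = 0.0177).

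**Figure D4:**
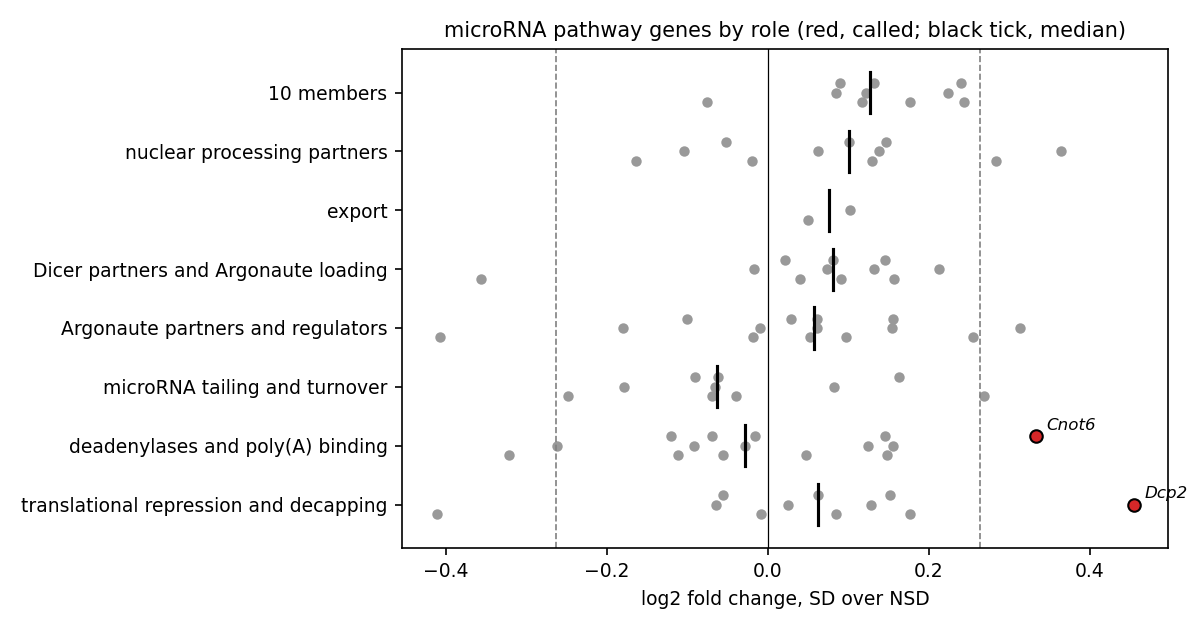
Log2 fold change of SD over NSD for the 10 genes and for 74 other pathway genes by role, 1 point per gene, red where called by edgeR, with a black tick at each median and dashed lines at a fold change of 1.2. Cnot6 and Dcp2 are the called genes, and the medians of all rows lie between -0.06 and 0.13.

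Host transcripts, the long RNAs that carry microRNA hairpins and serve as substrates of Drosha and Dgcr8, were read from the same fit. Of 11 host rows, 10 were tested, all 10 had fitted differences below 0, and edgeR called 4 lower in SD, against 2.33% of all genes and 4.18% of lncRNA rows. Of the lncRNA rows tested, 72.5% had fitted differences below 0. The mature microRNAs of 3 called hosts are shown, with the seed in capitals, because they are the products that Dicer1 and the Argonautes would handle (RefSeq, GRCm38.p6).
miR-100-5p (Mir100hg): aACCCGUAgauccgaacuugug
miR-99a-5p (Mir99ahg): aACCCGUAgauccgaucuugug
let-7c-5p (Mir99ahg): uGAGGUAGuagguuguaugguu
miR-125b-5p (both): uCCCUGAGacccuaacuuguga
miR-9-5p (Mir9-3hg): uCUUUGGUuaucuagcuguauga
miR-100-5p and miR-99a-5p share the seed ACCCGUA, and miR-125b-5p comes from both hosts, which lie on different chromosomes, Mir100hg at chr9:41238373-41628290 and Mir99ahg at chr16:77033205-77570315 (GRCm39). The fourth called host, Mir124a-1hg, carries Mir124a-1.

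Mir124a-1hg fell from 52.5 and 29.8 CPM in NSD to 19.4 and 11 CPM in SD (log2 fold change -1.44, SE 0.295, edgeR adjusted p = 0.0451). DESeq2 did not call it (adjusted p = 0.0928), and without NSD library 1 its difference was -0.94 and not called. Mir100hg fell from 35.5 and 25.6 CPM to 16.7 and 12.1 CPM (log2 fold change -1.09, SE 0.179, edgeR adjusted p = 0.0363). Mir99ahg fell from 6.06 and 4.30 CPM to 2.29 and 1.39 CPM (log2 fold change -1.50, SE 0.274, edgeR adjusted p = 0.0386). In each the groups did not overlap, and batch 2 lay below batch 1 within each group. Such a gap, with SD the lower group, was found in 8 of the 10 host rows tested. It was also found in 1168 of the 2610 lncRNA rows tested, so it is common in this class.

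Mir9-3hg fell less, from 17.7 and 16.1 CPM to 11.9 and 11.7 CPM (log2 fold change -0.51, SE 0.0939, edgeR adjusted p = 0.0385). Mir124-2hg, at 33.3 and 30.4 CPM in NSD and 29.2 and 26.6 CPM in SD, was not called (log2 fold change -0.19, SE 0.0841, edgeR adjusted p = 0.268), nor was Mir22hg (log2 fold change -0.09, SE 0.103, edgeR adjusted p = 0.732). Mirg had a log2 fold change of -1.82 (adjusted p = 0.0804 by edgeR, 1.08e-06 under the block and 0.217 by DESeq2), which ran from -1.13 without NSD library 1 to -2.80 without SD library 1. Mir181a-1hg was at -2.11 (adjusted p = 0.0809 by edgeR, 0.00504 under the block and 0.00673 by DESeq2), from -1.45 without SD library 2 to -3.27 without SD library 1. The block called both lower, for 6 in all, against 8.47% of all genes and 14.7% of lncRNA rows, and DESeq2 called 4, with Mir181a-1hg in and Mir124a-1hg out, against 5.80% and 10%. Without NSD library 1 only Mir100hg of the host rows was called.

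The host rows are lncRNAs, and over all 2610 lncRNA rows tested the median log2 fold change was -0.36, with -1.51 over 1663 TEC rows, so the median of the host rows, -1.26, stands beside class medians that were also below 0. The TEC shares above moved the same way, and their part in the host rows was not tested. The library kit does not capture mature microRNAs of this length, so the values concern the host transcripts only. The table held 4 rows of the biotype miRNA. Mir719 and Mir8091 were at 0 to 0.0719 CPM and were not tested, ENSMUSG00002076463 was at 0.0121 to 0.197 CPM and was not tested, and ENSMUSG00002076008 was tested and not called (log2 fold change -0.72, SE 0.658, edgeR adjusted p = 0.643).

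**Figure D5:**
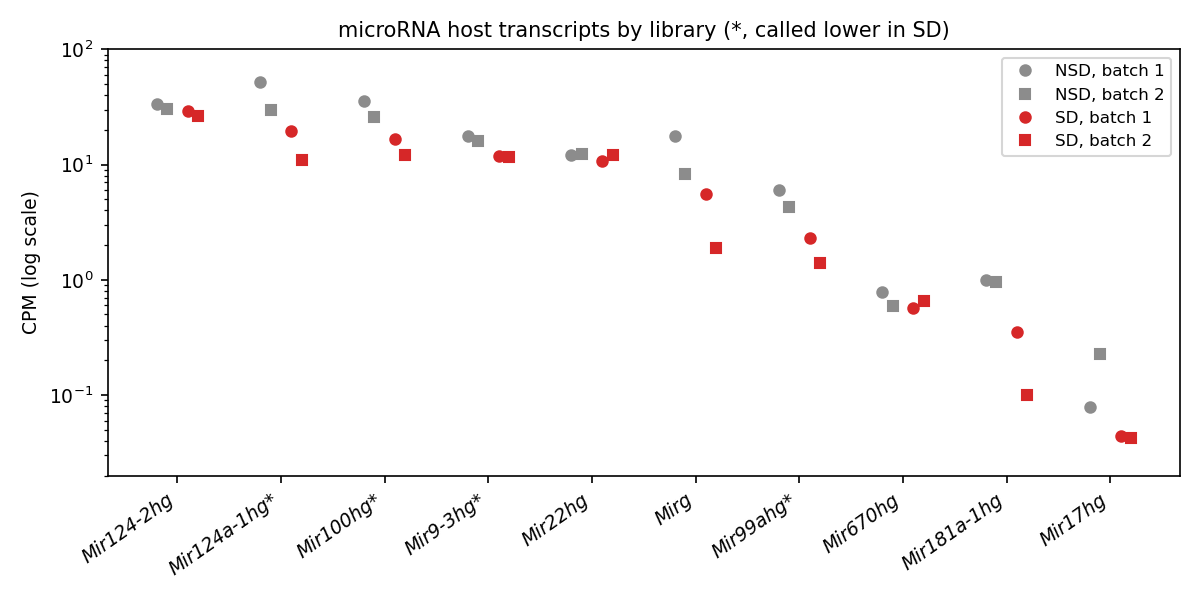
CPM of 10 microRNA host transcripts in each library on a log axis, grey for NSD and red for SD, circles for batch 1 and squares for batch 2, with an asterisk on those that edgeR called lower. Mir124a-1hg runs from 52.5 CPM in NSD library 1 to 11 CPM in SD library 2, and Mir22hg lies between 10.8 and 12.4 CPM in all 4.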

How the data were processed

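RNA bound to HA-tagged ribosomes was sequenced with a stranded, rRNA-depleted total RNA kit in 2 NSD and 2 SD libraries, each a pool of 5 mice. The authors aligned trimmed reads with STAR to mm39 and deposited estimated counts, without normalization, made by the E/M quantification of Partek Flow against Ensembl release 110. Of the genes, 55.6% hold a value that is not whole, since reads that match several genes are divided, and the share divided among paralogs of the Argonautes or of the GW182 family is not known.

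Counts were rounded, 22338 of 28193 genes exceeded 5 counts in all 4 libraries and were tested, and SD was compared with NSD with edgeR 4.0.16 in R 4.3.3 (TMM, quasi-likelihood, Benjamini-Hochberg over all genes tested). Called genes passed limits of 0.05 on the adjusted p and of 1.2 on the fold change. Standard errors are of the log2 fold change, taken as its absolute value over the square root of the edgeR test's F statistic. A prior count of 2 was added for within-batch log2 differences. The procedure was tested on simulated counts whose changes were larger than any fitted for the 10 genes, so that test does not cover changes of their size. The libraries of a group are separate pools, so p-values refer to the spread between pools. For each gene that spread was estimated partly from its own libraries and partly from other genes. The 10 genes and all lists were chosen with earlier results of these data known. The genes named in the pathway list are those called, the 2 of largest absolute log2 fold change in each role and the 3 nearest to Ago3, the host rows named are those called and the 5 of highest level, the miRNA rows are chosen likewise, which takes in all 4, and rows in the spans of the 10 genes and a few markers were added. Mirg and Mir181a-1hg, named for the block, fall outside this rule.

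Batch numbers in the labels equal the replicate numbers, which pairs NSD and SD libraries, and once group means were removed the same-numbered libraries correlated at 0.178 over genes. Exon lengths came from GENCODE vM39 (GRCm39), which held 27962 of the gene IDs. Alternatives were DESeq2 1.42.0, its size factors in edgeR, no count filter, filterByExpr, protein-coding rows only, the batch block, no fold threshold, each library left out, the longest transcript as length and library totals without TMM factors.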

Additional observations from a re-analysis of the deposited data

How the results depend on the processing

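Of 99 refits of the 10 log2 fold changes, 94 kept their direction and whether the gene was called. A kept label does not mean a kept size, since some of these refits crossed the fold limit of 1.2. Tnrc6b, for example, ran from 0.0602 without NSD library 2 to 0.4762 without NSD library 1. With 1 library left out, Dgcr8 ran from -0.1352 to 0.0172 (without NSD library 1), Tnrc6a from -0.0758 (without NSD library 2) to 0.5128 and Tnrc6c from -0.0802 (without NSD library 2) to 0.3862, so these 3 reversed. Ago3 was called by DESeq2 alone (0.27) and Tnrc6a without NSD library 1 alone (0.51). The median level of 13.0 CPM per kb became 21.3 with the longest transcript, which is shorter than all exons together.

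Calls over all genes, 172 higher and 520 lower, became 671 and 1296 with DESeq2, 50 and 80 with no count filter, 1 and 0 with filterByExpr (1594 and 2816 at an unadjusted p under 0.05), 51 and 39 with protein-coding rows only, and 668 and 1891 with the batch block. With 1 library left out they ran from 144 to 321 higher and from 87 (without NSD library 1) to 1953 (without SD library 1) lower. Of the 10 genes, 0 called higher became 1 with DESeq2, 0 to 1 with a library left out, and 0 with the block.

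Of the pathway genes, 2 called higher became 6 with DESeq2, 4 with its size factors, 5 with the block, 0 with no count filter, with filterByExpr or with protein-coding rows only, and 0 to 3 with a library left out, and 0 called lower became 1 with DESeq2, 3 with the block and 0 to 1 with a library left out. The 4 host transcripts called lower became 0 with no count filter or filterByExpr, 0 with protein-coding rows, which hold no host transcript, and 1 to 6 with a library left out. The cause was not tested for the other changes. Scaling moved the median of all genes by at most 0.0225 on the log2 scale, and a lone library left in a group was assumed to vary like the other group. The batch block pairs libraries by number and changed no call among the 10 genes. The 10 genes held at least 1894 counts in every library, so 2 libraries per group limit them more than counting does. For other rows these limits were not compared.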
